A study of Mus musculus with 6 samples.

Results

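MicroRNAs of liver (mmu-miR-122-5p), brain (mmu-miR-124-3p and mmu-miR-9-5p) and epithelium (mmu-miR-200a-3p, mmu-miR-200b-3p, mmu-miR-200c-3p, mmu-miR-141-3p and mmu-miR-205-5p) were followed in mouse heart. They are 8 of the 1881 mouse miRNAs on the array, chosen by name for tissues other than heart muscle, and all 8 were found both among the scanned spots and in the deposited value table. The study set left ventricles of male C57BL/6 mice given sunitinib, a tyrosine kinase inhibitor used against cancer, against left ventricles of male C57BL/6 mice given vehicle, here called control, with 3 samples in each group. The sources used here give no dose, duration or age of the mice. From each sample 200 ng of total RNA was labelled with Cy3 and hybridised to an Agilent miRNA array. Whether every sample is a separate mouse is not stated in the labels, and p-values therefore cover only how these samples vary, which may be technical variation.

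MicroRNAs are short RNAs that repress messenger RNAs, chiefly through pairing of the seed near their 5′ end. miR-122 is the dominant miRNA of hepatocytes and acts in cholesterol and fatty acid metabolism. miR-124 is abundant in neurons, where it represses genes of non-neuronal cells, and miR-9 is made in neural progenitors and neurons. The miR-200 family (miR-200a, miR-200b, miR-200c, miR-141 and miR-429) keeps epithelial cells epithelial by repressing Zeb1 and Zeb2, transcription factors that turn off E-cadherin. miR-205 marks basal and squamous epithelium and also represses Zeb1 and Zeb2. They are not the typical miRNAs of heart muscle, but whole ventricle also holds nerves, vessels, connective tissue and blood. In bulk tissue, fewer cells of a type and less RNA per cell cannot be told apart.

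The mature sequences of 6 members were matched in RefSeq (GRCm38.p6), and are shown because the 4 members of the miR-200 family differ by few bases. Capitals mark the seed, bases 2 to 8 from the 5′ end.
miR-9-5p: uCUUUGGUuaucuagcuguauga
miR-205-5p: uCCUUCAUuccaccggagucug
miR-200a-3p: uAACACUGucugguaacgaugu
miR-141-3p: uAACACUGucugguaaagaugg
miR-200b-3p: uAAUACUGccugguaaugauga
miR-200c-3p: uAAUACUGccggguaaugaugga
miR-200a-3p and miR-141-3p share the seed AACACUG, and miR-200b-3p and miR-200c-3p share the seed AAUACUG. Within each of these pairs 2 of the first 22 bases differ, and across the pairs 4 or 5 of 22 differ. The genes fall into other pairs: miR-200a-3p (chr4:156054911-156054932) and miR-200b-3p (chr4:156055685-156055706) come from hairpins 695 bases apart, and miR-141-3p (chr6:124717917-124717938) and miR-200c-3p (chr6:124718324-124718346) from hairpins 336 bases apart, all on the minus strand. miR-205-5p lies at chr1:193507503-193507524 on the minus strand. miR-9-5p has 3 genes with the same mature sequence, Mir9-1 at chr3:88215613-88215635, Mir9-2 at chr13:83738821-83738843 and Mir9-3 at chr7:79505279-79505301, all on the plus strand, and the array reads their sum.

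Each member has 2 probes that differ in length by 1 base, each printed as 15 spots, and in the 6 members with a matched sequence both probes pair with the 3′ part of the miRNA. The probe that was brighter over the 6 arrays stands for the member. For miR-200c-3p the 2 probes were these, with the base that only the longer one holds in capitals.
miR-200c-3p, longer probe: tccatcattacccggC
miR-200c-3p, shorter probe: tccatcattacccgg
The longer probe pairs with bases 8 to 23 of miR-200c-3p and the shorter with bases 9 to 23. In all 8 members the longer probe was the brighter one, as it was in 78.7% of the 1247 other miRNAs with 2 probes of unequal length that were below the detection limit on every array and in 94.3% of 211 miRNAs detected on all 6 arrays.

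The arrays carried heart tissue by their own markers. The 5 heart muscle miRNAs miR-1a-3p, miR-133a-3p, miR-133b-3p, miR-208a-3p and miR-499-5p were well above background on all 6 arrays, and none of the 5 passed the test between groups. Markers of endothelium (2 of 2), smooth muscle (2 of 2), red blood cells (3 of 3) and leukocytes (3 of 3) were also well above background on all arrays. The 3 leukocyte miRNAs went different ways. miR-223-3p fell in sunitinib hearts (log2 difference -1.32, limma adjusted p = 0.00085), and passed the threshold in all 21 alternative settings. With slide row as a block its difference was -1.41. That block rests on sunitinib replicate 3 alone, the only sunitinib array in the row of the controls. miR-142a-3p fell too (-0.64, adjusted p = 0.020), but passed in 10 of the 21 and not with slide row as a block (-0.62) nor without any single control (adjusted p = 0.085 to 0.0999). miR-150-5p had a difference of 0.35 (adjusted p = 0.359), which was 0.57 without sunitinib replicate 2 (adjusted p = 0.0140). Their part in the values of the 8 members was not tested. Between 235 and 252 miRNAs per array were well above background, the 6 arrays shared 1 slide, and 0 spots were saturated. Sunitinib replicates 1 and 2 lay in row 1 of the slide, and sunitinib replicate 3 lay in row 2 with all 3 controls.

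No member was detected in either group. A spot was marked well above background by the scanner software where its background-subtracted signal exceeded 11.3 to 13.2 brightness units, depending on the array, which was 5 times the array's additive error estimate. Of 1406 spots of the 8 members without outlier flags, 0 carried that mark, and the brightest of them reached 11.4 units. The call of the software per miRNA was "not detected" in all 48 combinations of member and array, and the summed signal equalled its own error in all 48, so that column holds no level for them. Of all 1881 miRNAs, 1620 (86.1%) were likewise well above background on no array. These values bound a signal and do not show that the miRNAs are absent from the tissue.

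**Figure D1:**
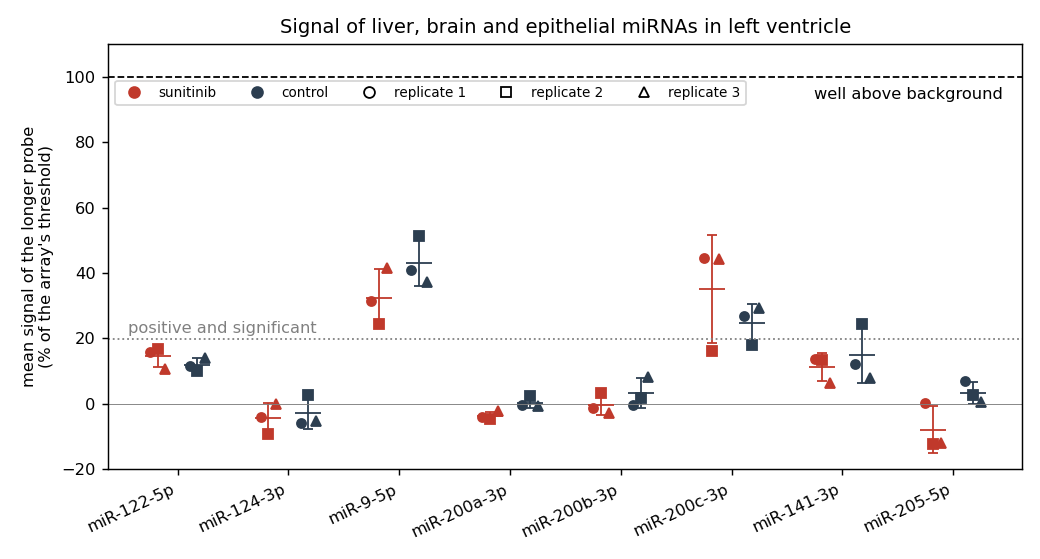
Mean signal of each member's longer probe on each array, as a percentage of that array's threshold for a spot well above background. Red symbols are sunitinib and dark symbols control, with the shape giving the replicate, and bars give the group mean ± SD (n = 3 each). The dashed line is the detection threshold and the dotted line the mean level above which a spot counted as positive and significant. All points lie between -12.2% and 51.2%.

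Below that limit, spots were counted that carried a weaker mark of the software. Probes of different miRNAs differ in length and sequence, so these counts set each probe against the negative controls and do not rank the members by amount. That weaker mark, positive and significant, was found from 2.25 to 2.62 units upward, depending on the array. These cuts lay close to the arrays' additive error estimates, 2.26 to 2.64 units. The cut was lowest on control replicate 3 and highest on sunitinib replicate 2, so counts from different arrays rest on unlike cuts. Negative-control spots, whose probes match no miRNA, carried this mark in 1299 of 5882 cases (22.1%, from 12.3% to 28.3% among 7 control probes), so that share is the background for the counts of spots that follow. Their mean signal per array was 0.613 to 1.02 units. Intervals on shares of spots below are exact 95% binomial intervals and cover counting error only, since spots on an array share 1 labelled RNA. Of the other 1612 miRNAs never well above background, the median share of positive and significant spots was 10.5%, with quartiles of 4.60% and 25.8%.

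mmu-miR-9-5p, the neural miRNA, had 71 of 89 spots positive and significant (79.8%, interval 69.9 to 87.6%), and 8.56% of the other 1612 undetected miRNAs had a share at least as high. Its mean signal was 3.79, 3.22 and 5.10 units in sunitinib hearts and 5.38, 6.05 and 4.21 units in control hearts. Sunitinib replicate 2 was the lowest and control replicate 2 the highest, and the groups overlapped because sunitinib replicate 3 lay above control replicate 3. The means were 4.04 ± 0.97 units in sunitinib and 5.21 ± 0.93 units in control (SD, n = 3 each), and 31 of 45 spots against 40 of 44 were positive and significant. The probe that is 1 base shorter had 28 of 90 spots positive and significant. It read 1.08 ± 0.44 units in sunitinib and 1.02 ± 0.25 units in control, without the lower mean in sunitinib. These readings were close to the negative-control means of 0.613 to 1.02 units per array, so this probe could hardly show a lower mean. The other arm of the hairpin, miR-9-3p, read 44.4% to 74.8% of the threshold in sunitinib and 54.0% to 85.3% in control, also below detection, with overlapping groups.

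mmu-miR-200c-3p, of the miR-200 family, had 56 of 85 spots positive and significant (65.9%, interval 54.8 to 75.8%), a share that 172 of the other 1612 undetected miRNAs reached. Its signal was 5.39, 2.12 and 5.44 units in sunitinib hearts and 3.54, 2.12 and 3.31 units in control hearts. Sunitinib replicates 1 and 3 were higher than every control, while sunitinib replicate 2 was as low as the lowest control, so the groups overlapped. The means were 4.32 ± 1.90 units in sunitinib and 2.99 ± 0.76 units in control (SD, n = 3 each). The shorter probe had the same order within sunitinib, with 2.39, -0.21 and 2.63 units, against 0.38, 0.59 and -0.18 units in control. On it, 7 of 14, 2 of 15 and 7 of 15 spots of the sunitinib arrays were positive and significant, against 2, 3 and 0 of 15 on the control arrays. Both probes read the same labelled RNA on the same array, so their common order is a technical repeat within a sample and adds no sample.

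**Figure D2:**
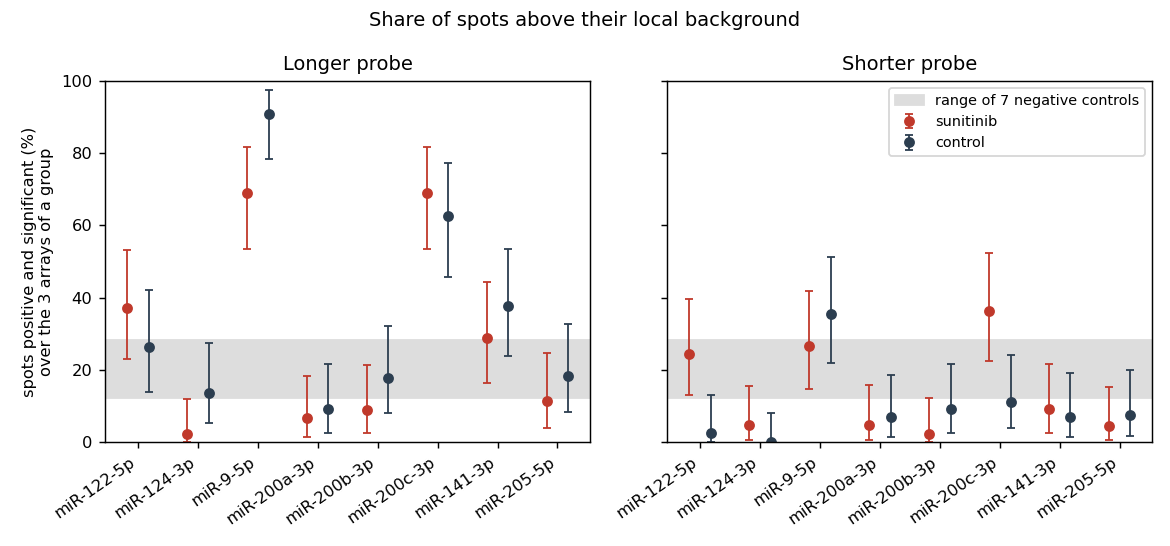
Share of spots marked positive and significant over the 3 arrays of each group, in percent, for the longer probe (left panel) and the shorter probe (right panel) of each member. Red is sunitinib, dark is control, bars are exact 95% intervals, and the grey band is the range over 7 negative controls, 12.3% to 28.3%. On the longer probe, miR-9-5p and miR-200c-3p lie above the band in both groups.

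Among the remaining epithelial members, miR-141-3p, from the same gene pair, had 30 of 90 spots positive and significant (33.3%, interval 23.7 to 44.1%), an interval that reaches into the range of the negative controls. Of the other 1612 undetected miRNAs, 20.4% had a share at least as high. miR-141-3p read 1.66, 1.78 and 0.775 units in sunitinib and 1.61, 2.87 and 0.889 units in control, with overlapping groups. miR-200b-3p, which shares its seed with miR-200c-3p, had 12 of 90 spots (13.3%) and averaged -0.03 ± 0.40 units in sunitinib and 0.38 ± 0.50 units in control. miR-200a-3p had 7 of 89 spots (7.87%) and miR-205-5p 13 of 88 (14.8%). Shares at least as high as those of miR-200b-3p, miR-200a-3p and miR-205-5p were found in 44.1%, 60.0% and 40.2% of the other undetected miRNAs. The group means of these last 3 ran from -1.01 to 0.42 units, below the mean negative-control signal of every array, and 68.2% to 74.2% of their spots lay below the floor of 1 unit used before taking logs.

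mmu-miR-122-5p, the liver miRNA, had 27 of 85 spots positive and significant (31.8%, interval 22.1 to 42.8%). A share at least as high was found in 20.8% of the other 1612 undetected miRNAs. The signal of miR-122-5p was 1.91, 2.23 and 1.32 units in sunitinib hearts and 1.51, 1.17 and 1.59 units in control hearts. Sunitinib replicates 1 and 2 were the highest and sunitinib replicate 3 lay among the controls. Its shorter probe read 0.760, 1.73 and 0.204 units in sunitinib and -0.216, 0.460 and -0.642 units in control, with overlapping groups and 11 of 45 spots against 1 of 41 positive and significant. The sunitinib share of 24.4% lay within the range of the negative controls, 12.3% to 28.3%, and the control share of 2.44% below it. miR-124-3p, the neuronal miRNA, had 7 of 89 spots (7.87%) and averaged -0.56 ± 0.60 units in sunitinib and -0.36 ± 0.59 units in control (SD, n = 3 each). Its share was reached by 60.0% of the other undetected miRNAs.

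Whether sunitinib altered the members was asked on log2 values. The test (limma, Benjamini-Hochberg adjusted p under 0.05) covered the 238 miRNAs that reached this level on each of the 3 arrays in at least 1 group, of which 4 (1.68%) were higher and 4 (1.68%) lower in sunitinib. None of the 8 members was among the 238. When all 1881 miRNAs were tested without that filter, 0% were called higher and 0.159% lower, with 72 in each direction at an unadjusted p under 0.05, and none of the 8 members passed. The log2 differences that follow compare signals near background and are no fold changes.

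Sunitinib minus control, miR-9-5p differed by -0.49 on the log2 scale (SE 0.20, adjusted p = 0.648, unadjusted p = 0.047). Its log2 values averaged 1.75 ± 0.41 in sunitinib and 2.24 ± 0.14 in control (SD, n = 3 each). With slide row as a block the difference was -0.05, and in the deposited log2 table it was -0.05 (SE 0.05, adjusted p = 0.842). miR-200c-3p differed by 0.40 (SE 0.30, adjusted p = 0.875), by 0.78 with slide row as a block and by 0.21 in the deposited table (SE 0.10, adjusted p = 0.600). Both blocked values rest on sunitinib replicate 3 alone, the only sunitinib array in the row of the controls. Leaving out 1 array at a time, the difference of miR-9-5p ran from -0.71 (without sunitinib replicate 3) to -0.31 (without sunitinib replicate 1). That of miR-200c-3p ran from 0.19 (without control replicate 2) to 0.71 (without sunitinib replicate 2), and was 0.21 without sunitinib replicate 3. The central 95% of differences among the other 1612 undetected miRNAs ran from -0.40 to 0.37, or from -0.10 to 0.11 in the deposited table. Over all 6 arrays, miR-9-5p and miR-200c-3p lay outside the first range and miR-200c-3p outside the second. The other 6 members differed by -0.23 to 0.16, with adjusted p from 0.747 to 0.946. The floor of 1 unit narrows differences of dim miRNAs, and only 5.62% of miR-9-5p and 18.8% of miR-200c-3p spots lay below it. The other undetected miRNAs had a median of 10.5% positive and significant spots, so the first range comes from mostly dimmer probes and is no test of these 2. In the deposited table miR-200c-3p stood at 2.33 to 2.71, above the column medians of 2.19 to 2.20, so the second range is no test of it either. With a floor of 4, miR-9-5p differed by -0.13 and miR-200c-3p by 0.25. After normexp background correction, which adds an offset of 50 units, they differed by 0.0008 and 0.06. That offset far exceeds the signals of both, and the higher floor cuts into them. Both settings thus narrow the differences in advance and do not measure how stable they are.

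**Figure D3:**
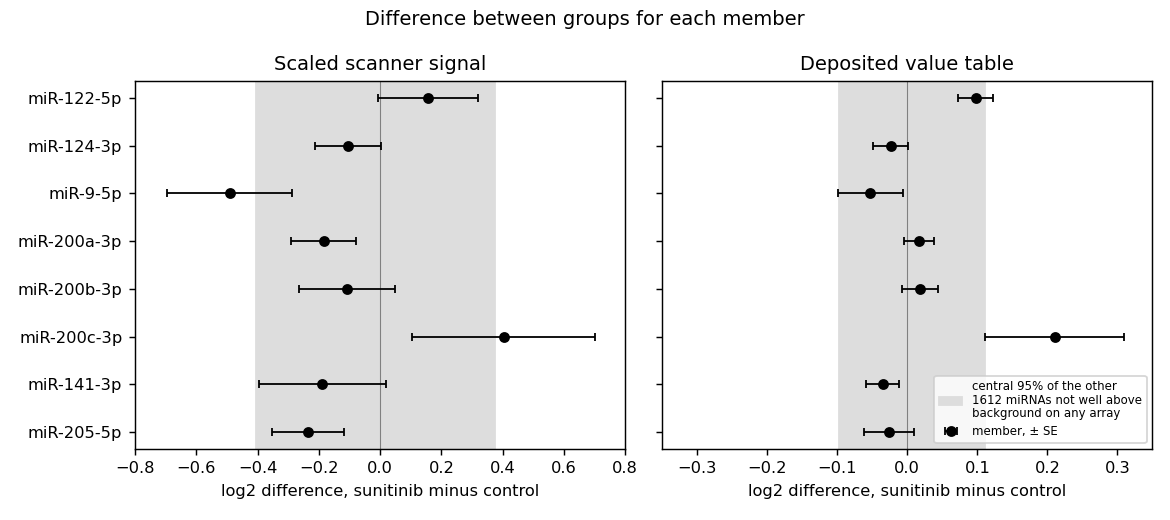
Difference in mean log2 value, sunitinib minus control, for each member with its SE from limma (n = 3 each), in scaled scanner signal (left panel) and in the deposited value table (right panel, narrower axis). The grey band holds the central 95% of the other 1612 miRNAs that were well above background on no array. miR-9-5p at -0.49 and miR-200c-3p at 0.40 lie outside the band on the left, and miR-200c-3p at 0.21 on the right.

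The samples of the groups did not overlap for few members, and not for the same ones in each set of values. In unscaled signal 2 of 8 were lower in every sunitinib sample, miR-200a-3p and miR-205-5p, where 6.36% of the 1620 undetected miRNAs were lower and 5% higher in this way. miR-205-5p read 0.03, -1.60 and -1.47 units in sunitinib and 0.91, 0.30 and 0.05 units in control, and miR-200a-3p read -0.49, -0.63 and -0.28 units in sunitinib and -0.07, 0.27 and -0.09 units in control. Of these, miR-200a-3p alone stayed apart in scaled log2 values (5.25% of undetected miRNAs lower, 5.62% higher), and neither did in the deposited table. The shorter probe of miR-200a-3p read -0.54 ± 0.13 units in sunitinib and -0.82 ± 0.50 units in control (SD, n = 3 each). On it the groups overlapped and the sunitinib mean was the higher one. The shorter probe of miR-205-5p read -0.60 ± 0.14 units in sunitinib and -0.23 ± 0.23 units in control, also without overlap. Both probes of a member read the same labelled RNA. No member was apart in the same direction in all 3 sets of values, as 28 of the 1620 (1.73%) were.

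In the deposited table miR-122-5p was higher in every sunitinib sample (6.05% of undetected miRNAs), and miR-141-3p lower (6.3%). miR-122-5p stood at 2.354, 2.393 and 2.379 in sunitinib and 2.254, 2.300 and 2.279 in control, a difference of 0.10 (SE 0.02, adjusted p = 0.256, unadjusted p = 0.0061). The table's negative controls also averaged higher in sunitinib for 7 of 7 probes, by 0.01 to 0.04, and 2 of the 7 did not overlap between groups. The part of that shift in the miR-122-5p difference was not tested. miR-141-3p stood at 2.250, 2.219 and 2.249 in sunitinib and 2.287, 2.282 and 2.255 in control, a difference of -0.04 (SE 0.02, adjusted p = 0.751).

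Against the 7 negative controls of the same table, which spanned 2.19 to 2.35 over the arrays, miR-9-5p was above all of them on 6 of 6 arrays, miR-200c-3p on 5 and miR-122-5p on 4. miR-124-3p, miR-200a-3p and miR-200b-3p were below all of them on 6 of 6 arrays and miR-205-5p on 5. Members ranged from 2.08 to 2.71 in that table, whose column medians were 2.19 to 2.20. On every array except control replicate 3 the column median lay below the lowest negative control. Most miRNAs were thus below all controls there, and a low place is no trait of these members. The share of all miRNAs above every control was not counted. All 8 members thus have values in that table, although none was detected on the scans.

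Other miRNAs of the same tissues were mixed. Of 4 further liver and gut miRNAs, miR-192-5p, miR-194-5p and miR-148a-3p were well above background on all 6 arrays, and differed by 0.16 (limma adjusted p = 0.352), -0.02 (adjusted p = 0.885) and 0.07 (adjusted p = 0.599). Of 8 further brain miRNAs, 4 were detected on at least 1 array: miR-128-3p (0.16, adjusted p = 0.311), miR-218-5p (-0.12, adjusted p = 0.678), miR-219a-5p (-0.25, adjusted p = 0.266) and miR-7a-5p (-0.36, adjusted p = 0.114). miR-7a-5p was near the limit, well above background on 1 of 3 sunitinib and 3 of 3 control arrays. Of 6 further epithelial miRNAs, miR-203-3p, a miRNA of skin epithelium, was well above background on 2 of 3 sunitinib and 1 of 3 control arrays, and the other 5, miR-429-3p of the miR-200 family among them, on none. None of the 7 tested miRNAs of these lists passed, where 1.68% of the 238 were called in each direction. The other arms of the 8 members' hairpins were well above background on 0 of 8 occasions.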

How the data were processed

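miRNAs were measured in 3 sunitinib and 3 control samples of left ventricle on 1-colour arrays. The files the authors deposited hold linear intensity per spot, from which background had been subtracted by Agilent Feature Extraction, version 10.7 per the submitters' processing notes and 10.7.1.1 per the file headers, with detection marks per spot and a summed signal per miRNA. The deposited value table holds log2 values. How these were scaled and centred is not stated in the sources used here. The table served as an alternative.

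Spots with outlier flags were left out. Signal near background is given unscaled. For tests it was scaled by each array's 75th percentile over 393 probes well above background on all arrays, floored at 1, log2-transformed and averaged per probe. The brightest probe stood for a miRNA. A probe was well above background where at least 50% of its spots were. limma 3.58.1 (R 4.3.3) was fitted across miRNAs and tested on simulated data. Shares used scipy 1.17.1. The members and lists, and so the miRNAs named (every member, and listed miRNAs detected on an array), were chosen with earlier results of these data known. Alternatives covered detection rule, filter, floor, probe summary, scaling, background correction, variance trend, replicate and slide-row blocks and leaving out each sample. The number of arrays limits the precision.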

Additional observations from a re-analysis of the deposited data

How the results depend on the processing

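Members were tested in 3 of the 21 alternatives run for the log2 difference, those without a filter, and none passed. In the other 18 no member was tested. The sign of the difference was never below 0 for miR-122-5p and miR-200c-3p and never above 0 for miR-205-5p. It varied for the other 5, whose largest value above 0 was 0.05. Changes of filter, variance trend and replicate block leave the difference itself as it was, and the software's summed signal gave 0 for every member. The normexp offset of 50 units drew every member's difference towards 0, so a sign there carries little. A constant sign was thus partly fixed in advance and does not measure how stable a direction is. Counts of members well above background on at least 1 array were 0 in both groups also with 1 such spot enough, with the software's own call and with outlier-flagged spots kept. With 1 positive and significant spot enough, the counts were 8 in sunitinib and 8 in control. Negative-control spots carried that mark in 22.1% of cases, so this rule can be met without any miRNA signal. With at least 50% of spots positive and significant, chosen after seeing the data, the counts were 2 in sunitinib (miR-9-5p and miR-200c-3p) and 3 in control (also miR-141-3p). With 1 spot well above background enough and outlier-flagged spots kept, also chosen after seeing the data, they were 2 in sunitinib (miR-141-3p and miR-200a-3p) and 2 in control (miR-122-5p and miR-200a-3p). The share of all miRNAs that met these looser rules was not counted, so the counts are no result about the members. Over all miRNAs, the 4 calls higher and 4 lower in sunitinib became 2 and 2 with normexp, and 1 and 1 with the software's summed signal. Calls higher were 0 with quantile normalisation, 1 without scaling, 0 without a filter and 0 without a filter in the deposited table. Calls lower were 7 with the mean of all probes and 2 without a filter after normexp. Leaving out 1 sample at a time gave 0 to 5 higher and 2 to 3 lower, with 0 higher and 2 lower without control replicate 1, 2 or 3, and 1 higher without sunitinib replicate 1 or 2. With slide row as a block there were 0 higher and 1 lower. The labels do not state whether the replicate numbers pair the samples. Deviations of same-numbered samples had r of 0.18, 0.22 and -0.05. The best partner was the same-numbered sample for replicates 1 and 2 but not for replicate 3. With 3 samples in each group this cannot decide on pairing. With a replicate block there were 0 higher and 2 lower. The cause of these changes was not tested. Signal over background limits every statement on the members, since none reached the detection threshold.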
